A study of Drosophila melanogaster with 46 samples.

Results

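The genes described here are digestive proteases and glucosidases of the fruit fly Drosophila melanogaster: the Jonah serine proteases, the trypsins and the maltases. Members were all array spots whose gene symbol starts with Jon, Mal-A, Mal-B or Amy-, or ends in Try, with tobi left out. The rule uses symbols alone and no measured value. It found 30 genes of the 10850 on the array, each with 1 array element of 2 duplicate spots, so 60 of 31464 spots. They are 13 Jonah genes, 8 trypsins and 9 maltases, and 0 amylases matched.

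Serine proteases of the Jonah and trypsin families cut dietary protein, and maltases split maltose and related sugars at their alpha-glucosidic bonds. In adult flies these enzymes are made mainly by the absorptive and secretory cells of the midgut and released into the gut lumen. The families arose by local duplication, so many members sit side by side in the genome, and their transcripts are known to respond to diet.

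The study measured RNA of adult flies of 3 to 5 days after eclosion, kept at 25 C, on 46 2-colour arrays, each setting 1 RNA against another. The reference strain y[1]w[67c], written y[1]w[1] in a label field of some arrays, gave whole females, whole males, ovaries, testes and the carcasses left after removal of the gonads. The mutants, taken as whole flies, were w[67c]/w[67c];tra2[B]/TRIX (XX;tra2), w[67c]/BsY;tra2[B]/TRIX (XY;tra2) and +/+;dsx[M+R45]/dsx[swe] (XX;dsx). Germline-less flies, called tudor here, were tud[1] bw[1]sp[1] females and males born to tud[1] bw[1]sp[1] mothers. The products of tra2 and dsx steer the sexual fate of somatic cells, and XX flies without tra2 function develop as males in the soma. Tudor progeny keep the somatic tissue of the gonads. Every comparison of a mutant or tudor fly with y[1]w[67c] also changes the genetic background, and the 2 cannot be told apart. Of the 15 comparisons, 7 have 4 arrays with both dye orientations and 8 have 2 arrays, 5 of these in 1 dye orientation. Comparisons that use the same kind of RNA, such as ovary or whole female, share it as a source.

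Values are log2 ratios of the first-named RNA over the second, centred on each array's median. The direction (channel 1 over channel 2) is likely but not stated in the sources used here. It rests on the yolk genes Yp1, Yp2 and Yp3, above 0 on 4 of 4 whole-fly arrays, and on the testis genes dj, Mst87F and betaTub85D, below 0 on 4 of 4 arrays of ovary against testis. The log base is not given either and was taken as 2. Each probe was made from 200 ng of mRNA, so a value compares shares of 2 mRNA pools. The labels do not say whether repeat arrays came from separate extracts, and p-values then measure the spread between arrays, part of which may be technical. An element was called where limma's Benjamini-Hochberg adjusted p was below 0.05. Errors are SE from 1 fit over all arrays, and n counts the arrays behind a value.

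An array measured 7994 to 14881 of 15732 elements, and 20 to 30 of the 30 members. The members varied more between arrays of 1 comparison than most elements did: their median residual SD was 0.434, against 0.193 over all elements. On the 2 arrays with RNA of mixed sexes in both channels, members lay between -0.42 and 0.24, with a median size of 0.0755. Arrays 2a (whole flies) and 4a (carcasses) stood above their companions for all 3 families. Array 15b (XX;tra2 against XY;tra2) stood below its companions, and its correlation with 16a over elements of the first subarray was 0.097, against 0.9248 between 16a and 16b. On arrays 7b and 8b the first subarray ran opposite to 7a and 8a, and its values were left out. The 18 members on that subarray therefore rest on 7a and 8a in the comparison of ovary with female carcass.

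Several members have close copies. Jon99Ci lies beside Jon99Cii, Jon99Fi beside Jon99Fii, deltaTry beside CG30025, and epsilonTry between alphaTry and betaTry. None of these neighbours is a member. Signal from such paralogs cannot be separated on these elements. In the genome the 30 genes form 10 clusters. The largest are 8 trypsins on chromosome 2R and 7 Mal-A genes elsewhere on 2R, followed by 4 Jon65A genes on 3L and 3 Jon25B genes on 2L. All 30 are autosomal.

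The heat map of fitted log2 ratios gives all members in all comparisons. Members of a family had similar colours down a column, and the families parted in the comparisons of the sexes and of the sex-determination mutants.

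**Figure D1:**
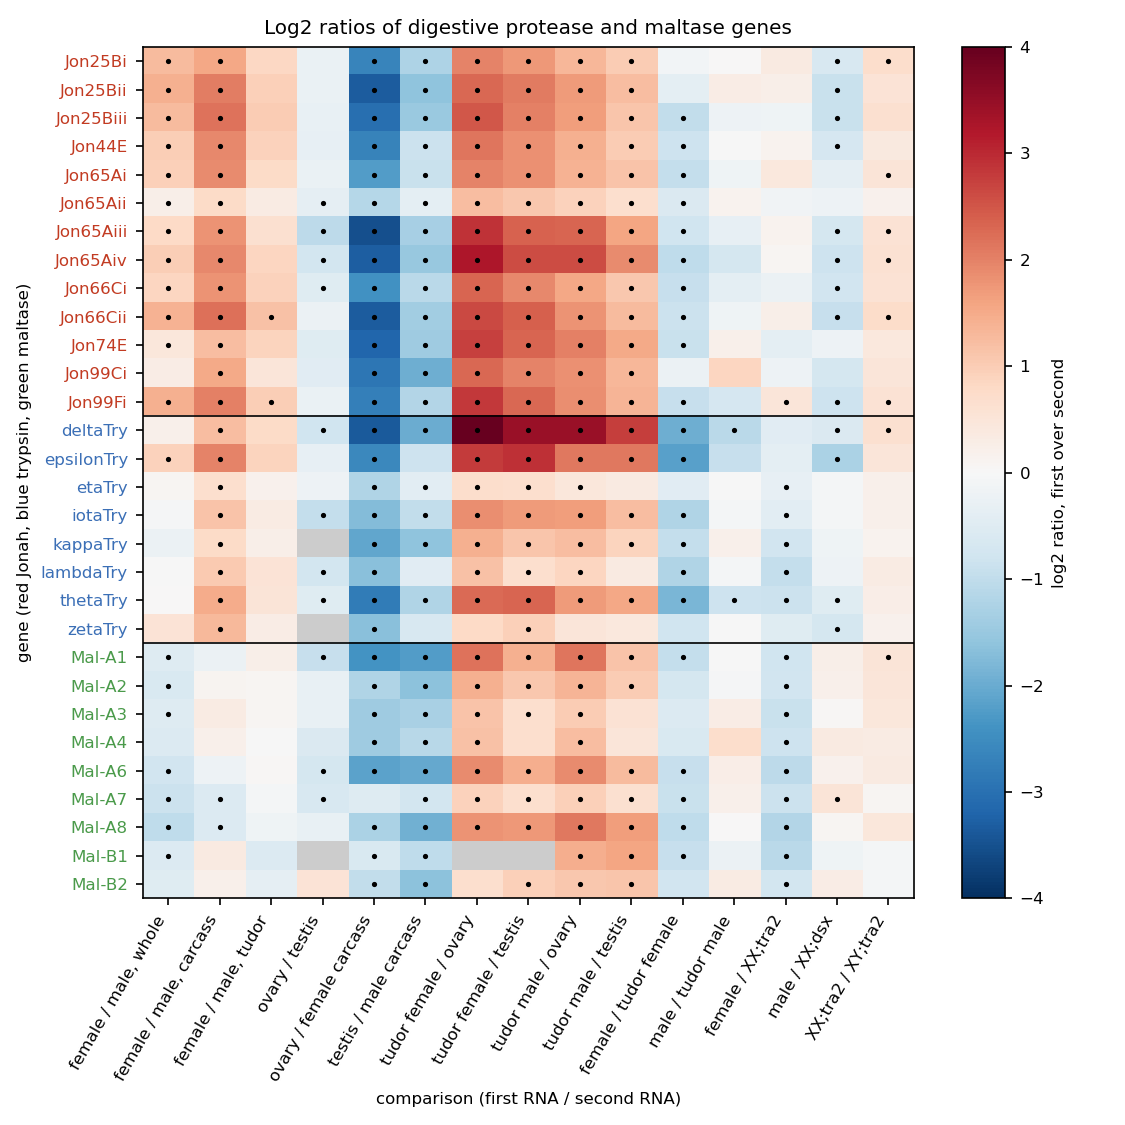
Fitted log2 ratio of each of the 30 genes (rows) in each of the 15 comparisons (columns), first RNA over second. Red is higher and blue lower in the first RNA, black dots mark an adjusted p below 0.05, and grey cells were not tested. All 30 genes are blue in ovary against female carcass and in testis against male carcass, while Jonah genes and maltases have opposite colours in whole females against males.

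The mRNA of the gonads held a smaller share of these transcripts than that of the bodies they were taken from. Against the female carcass, 29 of 30 members were lower in the ovary (26% of 13113 elements tested were lower) and 0 were higher by limma (23.5% of elements were), with 0 higher at an unadjusted p below 0.05 as well. Family medians of the log2 ratio were -2.90 for Jonah genes, -1.90 for trypsins and -1.25 for maltases, against -0.01 over all elements. In a bulk sample, fewer cells of a type and less RNA per cell cannot be told apart.

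Jon65Aiii, a Jonah protease, had the lowest ratio among the Jonah genes, with -3.49 and -3.56 on arrays 7a and 8a. Both arrays lay far below 0, with a fitted log2 of -3.52 ± 0.21 (SE, n = 2) and an adjusted p of 5.59e-15. The trypsin deltaTry read -3.34 and -3.38 on arrays 7a and 8a, a fit of -3.36 ± 0.29 (SE, n = 2), or 10.3-fold lower (adjusted p = 2.76e-11). At the other end stood the Mal-B genes, paralogs of the Mal-A maltases at another site in the genome. Mal-B1 read -0.42 and -0.80 on arrays 7a and 8a, a fit of -0.61 ± 0.22 (SE, n = 2) with an adjusted p of 0.0215. Mal-B2 read -0.78 and -1.19 on arrays 7a and 8a, a fit of -0.98 ± 0.35 (SE, n = 2) with an adjusted p of 0.0215. Mal-A7 was the sole member not called (fit -0.50 ± 0.24, adjusted p = 0.086). Leaving out 7a or 8a brought the count to 12 in both cases, since 12 members were then left with enough arrays to be tested.

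Against the male carcass, 27 of 30 members were lower in the testis (26.9% of elements were) and 0 were higher by limma (26% were), or at an unadjusted p below 0.05. The 13 Jonah genes and 9 maltases were all called, with medians of -1.34 and -1.63. Of the trypsins, 5 of 8 were called (median -0.91), and zetaTry (-0.65 ± 0.32), epsilonTry (-0.83 ± 0.39) and lambdaTry (-0.45 ± 0.27) were not. The median over all elements was 0.00.

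The lowest ratios in the testis belonged to maltases. Mal-A1 read -1.94 and -2.54 on arrays 9 and 10, a fit of -2.24 ± 0.28 (SE, n = 2), or 4.73-fold lower (adjusted p = 6.91e-08), and Mal-A6 read -2.11 and -2.01 (adjusted p = 8.96e-07). The smallest called differences were those of Jon65Aii, with -0.55 and -0.23 (adjusted p = 0.0227), and of etaTry, with -0.49 and -0.33 (adjusted p = 0.049). All 4 of these genes lay below 0 on both arrays. Without array 9 the count was 18, without array 10 it was 22, and the calls of Jon65Aii and etaTry were lost either way. Muscle markers were lower in both gonads, 5 of 5 in each (medians -3.25 in the ovary and -2.73 in the testis). Fat body markers were lower in 8 of 8 in the ovary (median -2.33) and in 4 of 7 in the testis, where 2 were higher. The yolk genes Yp1, Yp2 and Yp3 were lower in 3 of 3 in the ovary, and 2 of 3 were higher in the testis. Accessory gland markers were higher in the testis sample, 7 of 7 with a median of 1.13, and the part of these tissues in the ratios was not tested.

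The germline-less flies gave a second view, since they were set directly against the same gonad types. Every fitted value was above 0. In tudor males 25 of 30 members were higher than in testis (15.4% of elements were) and 29 of 30 were higher than in ovary (16.1%). In tudor females 28 of 29 tested were higher than in testis (17.8%) and 27 of 29 were higher than in ovary (12.7%). No member was called lower by limma in these 4 comparisons (16.5%, 14.3%, 19.4% and 12% of elements were), and 0 were lower at an unadjusted p below 0.05. Muscle markers were higher in 5 of 5 in each, with medians of 1.504 to 1.734. Fat body markers were higher in 5 of 8 and 4 of 8 in tudor males over testis and ovary (medians 1.11 and 0.79, with 1 lower over ovary), and in 8 of 8 and 7 of 7 in tudor females (2.855 and 2.28). Of the yolk genes Yp1, Yp2 and Yp3, 1 was higher over testis and 1 lower over ovary in tudor males. In tudor females 3 of 3 were higher over either gonad. The part of these tissues was not tested.

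The largest of these ratios were those of deltaTry in all 4 comparisons. It read 4.47 and 3.31 on arrays 21a and 21b in tudor females over ovary, a fit of 3.97 ± 0.29 (SE, n = 2), or 15.7-fold (adjusted p = 5.82e-12). Over testis it read 3.49 and 3.24 in tudor females and 2.82 and 2.54 in tudor males, and over ovary 4.05 and 2.70 in tudor males. Next came Jon65Aiv over ovary, with 3.79 and 2.84 in tudor females and 3.41 and 1.98 in tudor males, and epsilonTry over testis, with 3.12 and 2.39 in tudor females and 2.33 and 1.54 in tudor males. These 3 genes were above 0 on every array that set a tudor fly against a gonad.

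Among the smallest called ratios were those of Mal-A7 and etaTry. In tudor males these were Mal-A7 over testis, at 0.78 and 0.52 (adjusted p = 0.0426), and etaTry over ovary, at 0.64 and 0.24 (adjusted p = 0.0421). In tudor females Mal-A7 read 0.67 and 0.69 over testis (adjusted p = 0.0281) and 1.18 and 0.72 over ovary (adjusted p = 0.00355), and etaTry read 0.71 and 0.63 over ovary (adjusted p = 0.00306). All of these arrays lay above 0, but each of these calls was lost without at least 1 of its 2 arrays. The counts for tudor males fell to 11 over testis without 18a and to 13 over ovary without 19a. Arrays 19a and 21a read higher than 19b and 21b, with Jonah medians of 2.36 and 2.90 against 1.08 and 1.93.

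Between the gonads the differences were smaller. Of 27 members tested, 11 were lower in ovary than in testis (31.9% of elements were), and 0 were higher by limma (34.8% were), or at an unadjusted p below 0.05. The 11 were 4 Jonah genes, 4 trypsins and 3 maltases, and family medians were -0.34, -0.60 and -0.44. With a background of that size the count says little about these genes in particular. The accessory gland markers also stood lower in the ovary sample, 7 of 7 with a median of -2.72, and their part in these values was not tested.

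Jon65Aiii read -1.05, -0.98, -1.06 and -1.04 on arrays 5a, 5b, 6a and 6b, with all arrays below 0 and close together, and a fit of -1.03 ± 0.14 (SE, n = 4) with an adjusted p of 1.46e-07. The trypsin iotaTry read -0.66, -1.22 and -0.98 on arrays 5a, 5b and 6a (adjusted p = 1.94e-05) and thetaTry read -0.50, -0.46, -0.43 and -0.53 over 4 arrays (adjusted p = 0.01). Jon65Aii was the least of the called genes, with -0.40, -0.40, -0.23 and -0.41 on arrays 5a, 5b, 6a and 6b, below 0 on all 4 (adjusted p = 0.00158). Of the 27 tested, Mal-B2 alone had a fit above 0, at 0.54 ± 0.28 (SE, n = 3) with an adjusted p of 0.0943. With arrays scaled to the same spread 2 members were called lower (5092 of 13129 elements were called in either direction). On the arrays of this comparison alone 19 members were called lower and 1 higher, and the share over all elements was not computed.

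In whole flies the Jonah genes and the maltases differed between the sexes in opposite directions. The Jonah genes were higher in females, 12 of 13 called (28.9% of 12988 elements were higher), with a median log2 of 0.98. The maltases were higher in males, 7 of 9 called lower in females (27.8% of elements were), with a median of -0.56. Of the trypsins, epsilonTry alone was called, higher in females, and their median was 0.05. Over all elements the median was 0.00.

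Among the Jonah genes, Jon25Bii read 0.88, 1.04, 2.77 and 0.96 on arrays 1a, 1b, 2a and 2b, all above 0 with 2a far above the rest. Its fit was 1.42 ± 0.27 (SE, n = 4), or 2.67-fold higher in females (adjusted p = 3.64e-05). Jon99Fi read 1.04, 1.35, 2.30 and 0.94 on the same 4 arrays, a fit of 1.41 ± 0.17 (adjusted p = 2.60e-08). Jon66Cii, with 1.15, 1.28, 1.86 and 1.24, had the 4 values closest together of these genes (fit 1.38 ± 0.21, adjusted p = 1.14e-06), and Jon25Bi read 1.45, 0.99, 1.99 and 0.66 (fit 1.27 ± 0.21, adjusted p = 3.78e-06). The weakest called were Jon74E (0.46 ± 0.19) and Jon65Aii (0.23 ± 0.10). Jon99Ci was not called, with a fit of 0.28 ± 0.28 and a 95% interval of -0.28 to 0.84.

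Among the maltases, Mal-A8 read -1.10, -0.72 and -1.36 on arrays 1a, 2a and 2b, all below 0, with a fit of -1.03 ± 0.20 (SE, n = 3), or 2.04-fold lower in females (adjusted p = 7.97e-05). Mal-A7 read -1.18, -1.0, -0.34 and -0.97 on 1a, 1b, 2a and 2b, a fit of -0.87 ± 0.16 (adjusted p = 3.44e-05). Mal-A6 read -0.85, -0.89, -0.16 and -1.14 (fit -0.76 ± 0.21, adjusted p = 0.00218), and here too 2a was nearest to 0.

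The other 4 called maltases were closer to 0. Mal-A2 read -0.64, -1.01, -0.31 and -0.44 and Mal-A1 read -0.24, -0.79, -0.12 and -0.97, both below 0 on 4 of 4 arrays (adjusted p = 0.00637 and 0.0193). Mal-A3 read -0.94, -0.74, 0.46 and -0.90 (adjusted p = 0.0172) and Mal-B1 read -1.11, 0.05 and -0.64 on arrays 1a, 2a and 2b (adjusted p = 0.00803), with 2a above 0 in both. Mal-A4 (-0.53 ± 0.24, adjusted p = 0.0633) and Mal-B2 (-0.48 ± 0.24, adjusted p = 0.0904) were not called.

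Array 2a read higher than the other 3 arrays, with a median over members of 0.90 against -0.17 to 0.24. Without it 10 members were called higher and 10 lower. Without 1a, 1b or 2b the count called lower was 5, 4 and 5, and the calls of Mal-A1, Mal-A2, Mal-A3 and Mal-B1 were each lost without at least 1 of these arrays. Over all 4 arrays 8 of 22 other digestive enzymes were higher in females and 2 lower (median 0.18), and 4 of 5 muscle markers were lower (median -0.69). Ovary markers were higher in 9 of 9 (median 2.105), testis germline markers lower in 5 of 5 (-2.94) and accessory gland markers lower in 7 of 7 (-2.09), and of 7 fat body markers 4 were higher and 3 lower. The part of these tissues was not tested. On 2a the median of other digestive enzymes was 0.89 and that of muscle markers 0.41, against -0.23 to 0.11 and -1.09 to -0.73 on the other 3 arrays. With arrays scaled to the same spread, 8 members were called higher and 2 lower (4383 of 12988 elements were called in either direction).

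Without gonads the difference stood higher on the female side. Between carcasses, 21 of 30 members were higher in females (10% of 11690 elements were): all 13 Jonah genes, with a median of 1.90, and all 8 trypsins, with a median of 1.18. Of these, 18 were both called and at least 2-fold higher (123 of 11690 elements were). The maltases had a median of 0.12 and 0 called higher by limma (0 at an unadjusted p below 0.05), while Mal-A7 and Mal-A8 were called lower in females (8.69% of elements were).

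The protease with the largest ratio was Jon66Cii, with 2.04, 1.76, 3.40 and 1.56 on arrays 3a, 3b, 4a and 4b, a fit of 2.19 ± 0.21 (SE, n = 4), or 4.57-fold (adjusted p = 1.89e-09). Jon25Biii read 2.21, 1.67, 3.34 and 1.51, Jon25Bii 1.83, 1.69, 3.35 and 1.30 and Jon99Fi 2.10, 1.80, 2.70 and 1.40 on the same arrays (adjusted p = 2.33e-08, 8.83e-07 and 2.45e-10). In each of these 4 genes every array lay above 1 and 4a was the highest.

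Among the trypsins, epsilonTry had the largest ratio, 1.99 ± 0.26, and thetaTry followed at 1.49 ± 0.16. The smallest were kappaTry, with 0.74, 0.39, 1.77 and 0.16 on 3a, 3b, 4a and 4b and a fit of 0.77 ± 0.20 (adjusted p = 0.00802), and etaTry, with 0.55, 0.51, 1.36 and 0.27 and a fit of 0.67 ± 0.12 (adjusted p = 0.000128). Both were above 0 on all arrays. The call of kappaTry was lost without 4a, where its fit was 0.40.

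Of the maltases, Mal-A7 read -1.09, -0.48, 0.57 and -1.16 on arrays 3a, 3b, 4a and 4b, a fit of -0.54 ± 0.16 (SE, n = 4) with an adjusted p of 0.0197. Mal-A8 read -0.87, -0.58, 0.35 and -1.12, a fit of -0.55 ± 0.17 (SE, n = 4) with an adjusted p of 0.0233. In both, 4a was above 0 and the other 3 below. Either call was lost without 3a, 3b or 4b, without the dye coefficient, and on these arrays alone. Without 4a, 20 members were called higher and 4 lower.

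Array 4a read above its companions for all families, with 30 of 30 members above 0 and medians of 2.69, 1.83 and 1.01 for Jonah genes, trypsins and maltases. The other 3 arrays had Jonah medians of 1.30 to 1.85 and maltase medians of -0.50 to -0.18. Other genes moved with the proteases in carcasses. Of 21 other digestive enzymes tested, 19 were higher in females and 0 lower (median 0.94), among them yip7 and Bace, a serine and an aspartic protease, at 1.63 and 1.62. The lysozymes LysE, LysS and LysX, digestive lysozymes of the midgut, were all higher, at 1.75, 1.65 and 1.93. Fat body markers were higher in 6 of 8, the yolk genes Yp1, Yp2 and Yp3 in 3 of 3 (median 4.21), and ovary markers in 7 of 8 with a median of 1.26. Testis germline markers were lower in 5 of 5, accessory gland markers in 7 of 7 (median -1.28), and muscle markers in 1 of 5. The part of these tissues in the members' values was not tested.

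**Figure D2:**
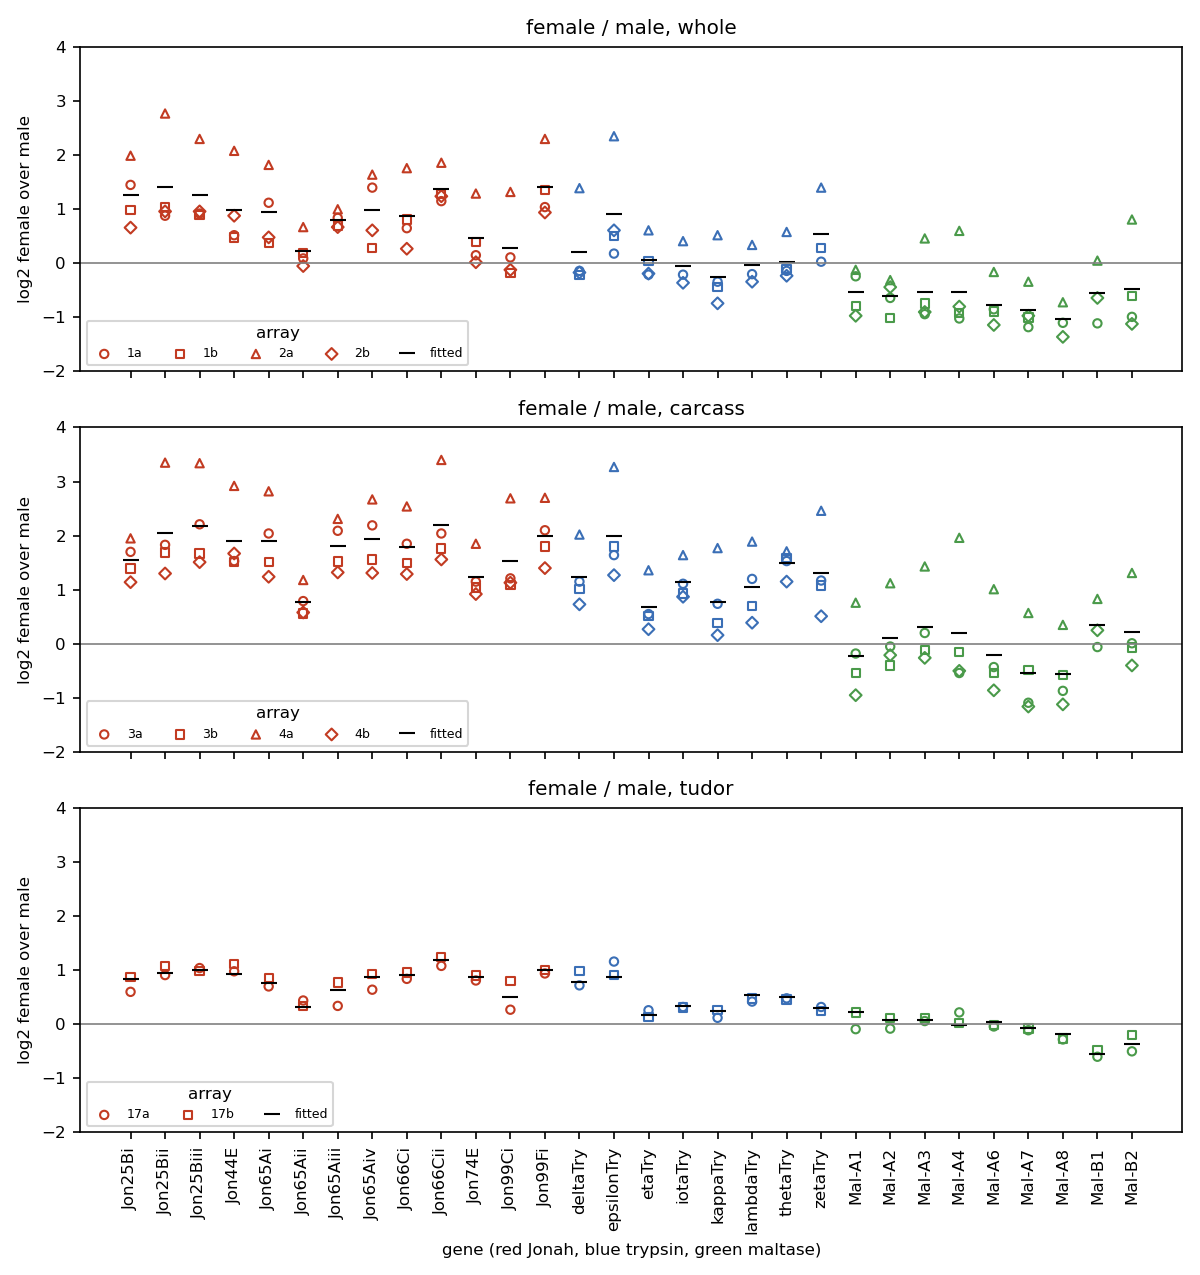
Log2 ratio of female over male for each of the 30 genes on each array, in whole flies (top), carcasses (middle) and tudor flies (bottom). Open symbols are arrays, short black bars the fitted values, and colours the families. Triangles in the top and middle panels are arrays 2a and 4a, which stand above the other arrays for nearly every gene. The 2 tudor arrays lie close together for most genes.

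The sex difference itself differed between carcasses and whole flies. Subtracting the whole-fly log2 ratio from the carcass ratio gave a positive value for all 30 members, and 20 were called (19.8% of 11364 elements were called higher): 10 Jonah genes, 7 trypsins and 3 maltases. Called lower were 0 by limma (18% of elements were), and 0 at an unadjusted p below 0.05. The median over members was 0.83, against 0.01 over all elements.

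The trypsin thetaTry had the largest difference, 1.47 ± 0.23 (adjusted p = 1.10e-05). It read 1.53, 1.59, 1.71 and 1.15 in carcasses and -0.14, -0.10, 0.58 and -0.23 in whole flies, and the 2 sets of arrays did not overlap. Jon99Ci followed at 1.25 ± 0.39 (adjusted p = 0.0125). The smallest called were etaTry at 0.61 ± 0.17 and Jon65Aii at 0.55 ± 0.14 (adjusted p = 0.00523 and 0.00215). Markers of other tissues moved in the same contrast. Called higher were testis germline markers in 5 of 5 (median 1.85), fat body markers in 4 of 7 (1.17), accessory gland markers in 4 of 7 (0.50) and lysozymes in 3 of 3 (0.87), while ovary markers were lower in 7 of 8 (-0.99). Their part was not tested. The count depended on single arrays, with 7 called without 4a, 11 without 1a and 13 without 1b.

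**Figure D3:**
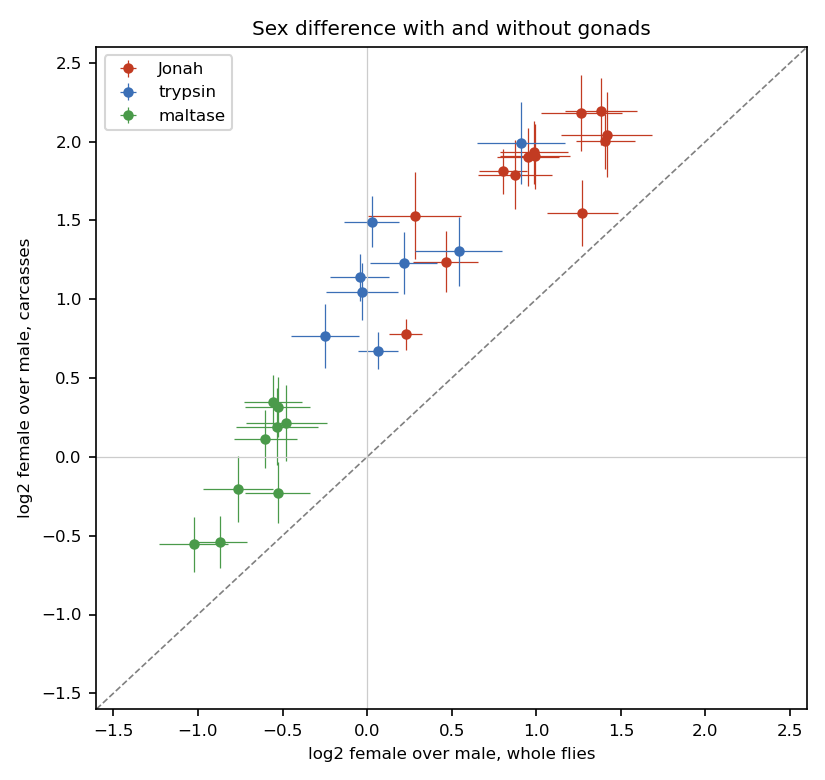
Log2 ratio of female over male in carcasses (vertical axis) against whole flies (horizontal axis), with SE bars, for the 30 genes coloured by family. The dashed line marks equal values. All 30 points lie above it, with maltases at the lower left and Jonah genes at the upper right.

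In tudor flies, which lack a germline, all 13 Jonah genes and all 8 trypsins were above 0 on both arrays (37.2% of elements were), but few passed the test. Both arrays have the same dye orientation, so dye is separated from sex here only through the dye coefficient shared by all arrays. Called higher in females were 2 of 30 members (0.339% of 11510 elements were), both Jonah genes. Called lower were 0 by limma (0.904% were), and 1, Mal-B1, at an unadjusted p below 0.05 (328 of 11510 elements were). At that p 15 members were higher (289 of 11510 elements were). Family medians were 0.88, 0.42 and -0.01. Fat body markers were higher in 4 of 8 (median 1.26), the yolk genes Yp1, Yp2 and Yp3 in 3 of 3 (2.70). Accessory gland markers were lower in 7 of 7 (-2.25), and the part of these tissues was not tested.

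Jon66Cii read 1.08 and 1.24 on arrays 17a and 17b, a fit of 1.19 ± 0.31 (SE, n = 2) with an adjusted p of 0.0401. Jon99Fi read 0.94 and 1.01 on arrays 17a and 17b, a fit of 1.00 ± 0.26 (SE, n = 2) with an adjusted p of 0.0353. Both are Jonah proteases, and their 2 arrays were close together. Neither was called without 17a or without 17b, without the dye coefficient, or with arrays taken as independent. Both were called with arrays scaled to the same spread, where 19 members were higher and 1 lower. With that scaling 2106 of 11510 elements were called in either direction, against 143 without it. Both were also called on these arrays alone, where 10 members were higher and the share over all elements was not computed. The tudor arrays had the narrowest spread over all elements of the 15 comparisons, a robust SD of 0.13 on each, against 0.44 to 0.63 in whole flies.

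Other arrays gave a second reading of the same difference, by subtracting tudor male over gonad from tudor female over the same gonad. Through the testis the medians were 0.81 for Jonah genes, 0.52 for trypsins and 0.09 for maltases over 29 members. Through the ovary they were 0.64, 0.30 and -0.02. Called were 0 in each by limma (0.104% and 0.0783% of elements were called higher, 0.356% and 0.148% lower), and 6 and 1 were higher at an unadjusted p below 0.05. At that p 134 of 11511 and 46 of 11494 elements were higher.

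The sex difference of tudor flies was also set against that of y[1]w[67c] flies. Relative to carcasses, 1 member was called, Jon65Aiii at -1.17 ± 0.25 (adjusted p = 0.0362), a lower female excess in tudor flies. Over all elements 0.171% were called lower and 0.0853% higher. At an unadjusted p below 0.05, 17 members were lower (816 of 10557 elements were). The tudor arrays of Jon65Aiii read 0.34 and 0.77 and its carcass arrays 2.09, 1.52, 2.31 and 1.32, without overlap. That call was lost without 3a, 4a, 17a or 17b. Relative to whole flies, Mal-A8 (0.85 ± 0.32, adjusted p = 0.046) and Mal-A7 (0.80 ± 0.29, adjusted p = 0.037) were called higher (14% of elements were, and 13.7% lower). On the tudor arrays Mal-A8 read -0.28 and -0.26 and Mal-A7 -0.11 and -0.08, nearer to 0 than on every whole-fly array. Both calls were lost without 17a, 17b, 1a or 2b, and that of Mal-A7 also without 1b, while 6 members were called without 2a. With arrays scaled to the same spread 16 members were called higher and 1 lower, and neither Mal-A8 nor Mal-A7 was called. With that scaling 1636 of 10901 elements were called in either direction. Relative to whole flies, ovary markers were lower in 6 of 7 (median -1.495), and testis germline markers were higher in 5 of 5 (2.32) and fat body markers in 4 of 7 (0.78). Their part was not tested.

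Between arrays of whole flies and of carcasses, the spacing of Jonah genes and maltases varied less than either level. Within an array, the Jonah median minus the maltase median lay between 1.59 and 1.94 in whole flies and between 1.68 and 2.03 in carcasses, although the Jonah medians spanned 0.66 to 1.82 and 1.30 to 2.69. In tudor flies it was 0.90 and 0.94. Elsewhere it was not always the steadier value: in tudor females over testis it was 1.33 and 0.57, with Jonah medians of 2.14 and 2.00. This measure was chosen after the values were seen and is given without a test.

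**Figure D4:**
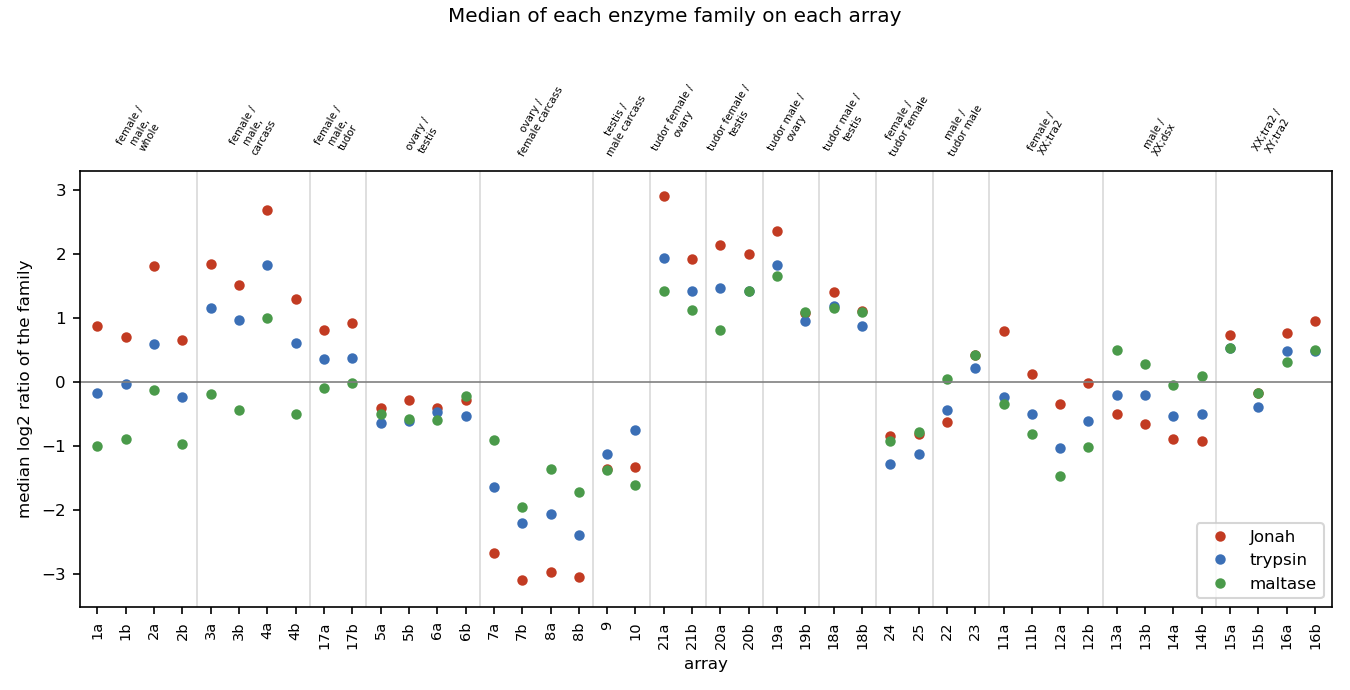
Median log2 ratio of Jonah genes, trypsins and maltases on each of the 44 arrays, grouped by comparison (first RNA over second, named above each group). On 2a and 4a all families are shifted up together, and on 15b down. Jonah medians lie above maltase medians in the 3 comparisons of the sexes and below them in male against XX;dsx.

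The sex-determination mutants separated the families again. Against XX;tra2 flies, which have a male soma and 2 X chromosomes, females had lower maltase levels, 9 of 9 called (28.4% of 12014 elements were lower), with a median of -0.85. Of 8 trypsins, 5 were called lower, with a median of -0.47. The Jonah genes had a median of 0.13, and 1 of 13, Jon99Fi, was called, higher in females (28.1% of elements were).

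Mal-A8 read -0.62, -0.86, -1.73 and -1.43 on arrays 11a, 11b, 12a and 12b, below 0 on 4 of 4, with a fit of -1.16 ± 0.17 (SE, n = 4), or 2.23-fold lower in females (adjusted p = 1.36e-06). Mal-B1 read -0.74, -0.99, -1.61 and -0.94 (fit -1.07 ± 0.15, adjusted p = 1.10e-06), also below 0 on every array. The trypsin etaTry read -0.18, -0.26, -0.59 and -0.33 (adjusted p = 0.0161), a call lost without 12a or 12b. Jon99Fi read 0.93, 0.26, 0.20 and 0.51 (fit 0.47 ± 0.17, adjusted p = 0.0216), above 0 on 4 of 4, a call lost without 11a or 12b, while 2 were called higher without 12a. For the Jonah genes not called, the widest 95% interval was that of Jon99Ci, -0.78 to 0.34.

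The families shifted together between these arrays too. Jonah medians went from 0.80 on 11a to -0.34 on 12a and maltase medians from -0.34 to -1.47, while their difference stayed between 0.94 and 1.14. Muscle markers were lower in females, 5 of 5 with a median of -2.15, and 12 of 23 other digestive enzymes were lower with 0 higher, while the 3 lysozymes were higher with a median of 0.64. Ovary markers were higher in 9 of 9 (median 2.285) and accessory gland markers lower in 7 of 7 (-2.35), and of 8 fat body markers 3 were higher and 5 lower. The part of these tissues in the ratios was not tested.

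Males set against XX;dsx flies showed the reverse order of families. The Jonah genes were lower in males, 9 of 13 called (11.6% of 12633 elements were lower), with a median of -0.71, and 4 of 8 trypsins were called lower, with a median of -0.35. Of 9 maltases, 1 was called, Mal-A7, higher in males (15.1% of elements were), and their median was 0.19.

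Jon66Cii read -0.77, -0.83, -0.97 and -1.04 on arrays 13a, 13b, 14a and 14b, below 0 on 4 of 4 and close together, with a fit of -0.91 ± 0.21 (SE, n = 4), or 1.87-fold lower in males (adjusted p = 0.00108). The largest difference in this comparison was that of epsilonTry, with -1.12, -1.31, -1.13 and -1.54 (fit -1.28 ± 0.26, 2.42-fold lower, adjusted p = 0.000241). A trypsin of the same cluster, thetaTry, read -0.36, -0.32, -0.53 and -0.74 (fit -0.49 ± 0.16, adjusted p = 0.0235). Mal-A7 read 0.83, 0.61, 0.34 and 0.23 (fit 0.50 ± 0.16, adjusted p = 0.0204), above 0 on 4 of 4. The call of Mal-A7 was lost without 13a or 13b, and that of thetaTry without 13a, 14a or 14b. Without 14a and without 14b, the members called lower were 8 and 7.

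Within each array the Jonah median minus the maltase median was -1.02 to -0.83. Lysozymes were lower in males, 3 of 3 with a median of -1.37, and so were 10 of 22 other digestive enzymes, with 0 higher. Muscle markers were lower as well, 5 of 5 with a median of -1.71, and so were fat body markers, 7 of 8 with a median of -1.23. Testis germline markers were higher, 5 of 5 with a median of 2.235. The part of these tissues was not tested.

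Between the tra2 mutants, which differ in their sex chromosomes and share the tra2[B]/TRIX genotype, 8 of 30 members were higher in XX (5.19% of 11025 elements were): 6 Jonah genes, 1 trypsin and 1 maltase. Called lower were 0 by limma (15.3% of elements were), and 0 at an unadjusted p below 0.05. Family medians were 0.58, 0.24 and 0.36. No member was both called and 2-fold, while 17 of 11025 elements were so higher and 655 lower.

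Jon66Cii read 0.87, 0.15, 0.77 and 1.14 on arrays 15a, 15b, 16a and 16b, above 0 on 4 of 4, with a fit of 0.73 ± 0.21 (SE, n = 4) with an adjusted p of 0.00973. Jon25Bi read 0.59, 0.37, 0.80 and 1.00 (adjusted p = 0.0145), Jon65Ai 0.90, -0.20, 0.80 and 0.58 (adjusted p = 0.0401) and Mal-A1 0.71, 0.64, 0.11 and 0.65 (adjusted p = 0.0488). Array 15b was the lowest of the 4 for the 3 Jonah genes and 16a for Mal-A1. On 15b, 9 of 30 members were above 0, against 28 or 29 on the others. The count was 18 without 15b, 2 without 15a, 1 without 16a and 1 without 16b, so single arrays set it. Testis germline markers were lower in XX, 5 of 5 with a median of -2.41, and 7 of 22 other digestive enzymes were higher with 0 lower, at a median of 0.38.

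Females set against germline-less females were lower in all 30 members on both arrays (39.9% of elements were). Called lower were 21 of 30 (14.9% of 10484 elements were): 10 Jonah genes, 6 trypsins and 5 maltases. Called higher were 0 by limma (15.5% of elements were), and 0 at an unadjusted p below 0.05. Medians were -0.86, -1.20 and -0.88, against 0.00 over all elements, and the Jonah-minus-maltase difference was near 0, at 0.07 on 24 and -0.02 on 25.

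The trypsins stood furthest apart. EpsilonTry read -2.13 and -2.23 on arrays 24 and 25, a fit of -2.18 ± 0.39 (SE, n = 2), or 4.54-fold lower in females with a germline (adjusted p = 6.79e-05). DeltaTry read -1.88 and -2.03 (fit -1.95 ± 0.29, adjusted p = 9.73e-06) and thetaTry had a fit of -1.81 ± 0.24 (adjusted p = 1.79e-06). Both arrays gave nearly the same value for the first 2. The smallest called were Jon65Aii at -0.39 and -0.74 and Jon65Aiii at -0.81 and -0.78 (adjusted p = 0.00308 and 0.00462), both lost without array 25. Without array 24 the count was 7, and without array 25 it was 5.

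Ovary markers were higher in females with a germline, 8 of 9 with a median of 1.36. Muscle markers (5 of 5, median -1.64), lysozymes (3 of 3, median -1.40), fat body markers (7 of 8, median -1.52) and other digestive enzymes (14 of 22, median -1.09) were lower. The part of the ovary's RNA in the pool was not tested.

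In males the same comparison gave 2 called members of 30, both trypsins and both lower in males with a germline (1.36% of 13355 elements were lower). Called higher were 0 by limma (5.99% were), and 1, Jon99Ci, at an unadjusted p below 0.05 (1349 of 13355 elements were). DeltaTry read -1.16 and -1.01 on arrays 22 and 23, a fit of -1.09 ± 0.29 (SE, n = 2), or 2.13-fold (adjusted p = 0.0139). ThetaTry read -1.19 and -0.45 on arrays 22 and 23, a fit of -0.82 ± 0.24 (SE, n = 2) with an adjusted p of 0.0281. Either call was lost when 22 or 23 was left out, where the lone array is assumed to vary like the arrays of other comparisons. The arrays disagreed over the members as a whole, with 24 of 30 below 0 on 22 and 23 of 30 above 0 on 23, and with Jonah medians of -0.62 and 0.42. Testis germline markers were higher in males with a germline, 5 of 5 with a median of 2.09, and 5 of 23 other digestive enzymes, 2 of 5 muscle markers and 4 of 8 fat body markers were lower. Their part was not tested.

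The log2 ratio of tudor over y[1]w[67c] flies was higher in females than in males for all 30 members in the fit, and 4 were called (6.23% of 10287 elements were called higher). These were iotaTry (1.14 ± 0.31, adjusted p = 0.0177), Mal-A7 (1.08 ± 0.34, adjusted p = 0.0357), thetaTry (1.00 ± 0.34, adjusted p = 0.0499) and Jon65Aii (0.69 ± 0.20, adjusted p = 0.0246). Called lower were 0 by limma (5.86% of elements were), and 0 at an unadjusted p below 0.05. The median over members was 0.84, against 0.00 over all elements. None was called without 23, 24 or 25, and 7 were called without 22.

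**Figure D5:**
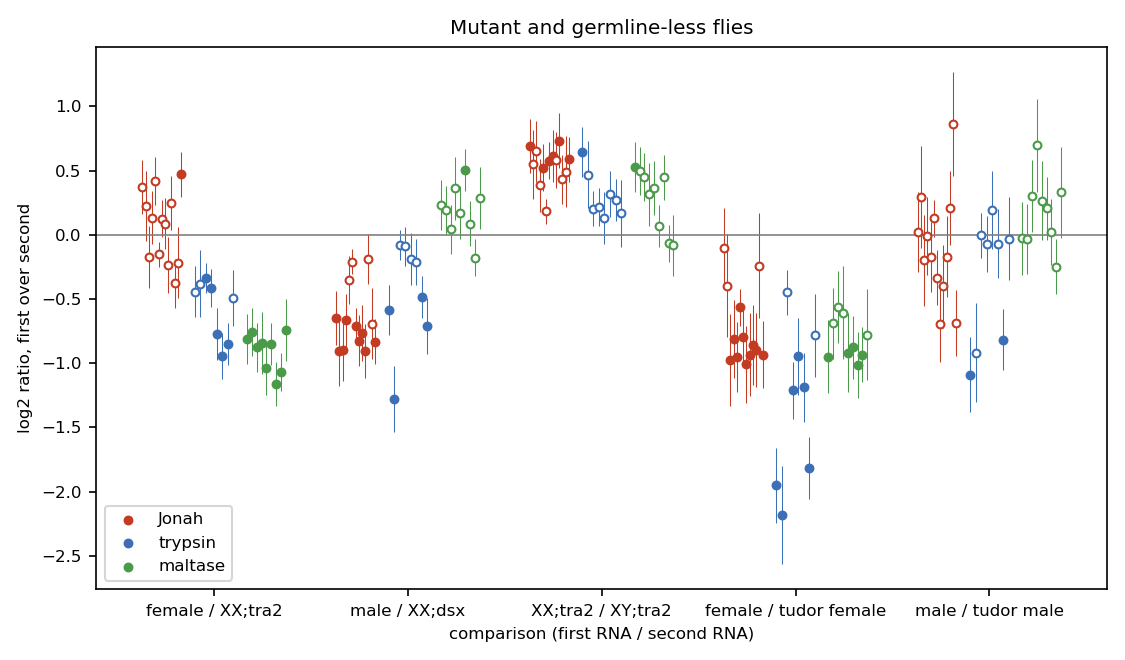
Fitted log2 ratio (first RNA over second) with SE bars for each gene in the 5 comparisons of mutant or tudor flies, by family. Filled points have an adjusted p below 0.05 and open points do not. As a family, maltases lie lowest in female against XX;tra2 and Jonah genes in male against XX;dsx, where epsilonTry is the lowest single gene, and all 30 genes lie below 0 in female against tudor female.

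Members varied together between arrays. Deviations from the mean of each comparison correlated over 44 arrays with a median r of 0.773 over 435 member pairs (range 0.087 to 0.943), against a median of 0.033 over all pairs of elements measured on every array. Within families the median r was 0.793 for Jonah genes, 0.803 for trypsins and 0.751 for maltases, and between Jonah genes and maltases it was 0.704. The arrays behind these values are shared by all pairs, and arrays such as 2a, 4a and 15b enter every one.

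Some members stood apart within their family. Jon65Aii had the smallest ratios of the Jonah genes in carcasses (0.78 ± 0.10), in ovary over female carcass (-1.13 ± 0.10) and in testis over male carcass (-0.39 ± 0.14), and etaTry those of the trypsins in the same 3 (0.67 ± 0.12, -1.21 ± 0.17 and -0.41 ± 0.17). DeltaTry and epsilonTry had the 2 largest ratios of the trypsins in tudor flies of either sex over either gonad. These sizes are ratios, not levels, and levels cannot be compared between elements here.

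Genes linked to the control of digestive enzymes were read beside the members. There were 7 on the array, Akh and its receptor AkhR, daw, dimm, foxo and sug among them. In whole females 3 of 5 tested were lower (27.8% of elements were), sug at -0.60, Akh at -0.23 and dimm at -0.13. In carcasses 1 of 6 was lower in females (8.69% of elements were), dimm at -0.17. Sug, a zinc-finger factor of sugar sensing, was also lower in females than in XX;tra2 (-0.75) and than in tudor females (-0.525). In these comparisons 3 of 6 and 2 of 5 tested were lower (28.4% and 14.9% of elements were) and 0 higher. In ovary against female carcass 4 of 6 were lower (26% of elements were) and 0 higher. A link of these genes to the members was not tested.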

How the data were processed

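The deposited values are the authors' log ratios of 2 channels, taken as log2 and as channel 1 over channel 2, for 46 spotted arrays scanned on a GenePix 4000A per the labels. How background correction, normalization and the filter on missing spots were done is not given in the sources used here. Other handling of weak spots could change which members were measured. Spots were named through GEO's platform annotation, and all 30 members matched a RefSeq gene with the same symbol.

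Duplicate spots were averaged, each array was centred on its median, and ratios were turned by the array titles. Python 3.11.15 and limma 3.58.1 in R 4.3.3 were used. All 46 arrays entered 1 limma fit with a coefficient for each of 15 comparisons, a dye coefficient, and the hybridisation number as a random block (estimated correlation -0.0875, prior degrees of freedom 4.31). With a negative correlation, arrays that share a number get smaller errors than independent arrays would. If such repeats are technical, these errors may be too small. With arrays taken as independent, the 2 calls in tudor females against males were lost. Elements measured on at least 2 arrays of a comparison were tested, with Benjamini-Hochberg adjustment over all of them and a threshold of 0.05. Contrasts of comparisons came from the same fit. From arrays 7b and 8b, 9626 values of the first subarray were left out, 34 of them of members: their correlations with 7a and 8a were -0.9269 to -0.8679 there, against 0.8433 to 0.9217 on the second subarray.

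Duplicate spots correlated at 0.7975 to 0.9867 within arrays. The number of arrays limits the precision. The fit was tested on simulated data with known changes. Their noise was drawn from the fit's own spread and block correlation, so the simulation cannot check these, nor shifts of whole arrays. Per-array values were given for the 4 highest and 4 lowest fitted ratios among called members in whole flies, carcasses and tudor flies, for the 2 highest and 2 lowest elsewhere, and for members called against the majority. Other genes were named from fixed lists of pathway and tissue markers. Yolk genes were not set apart when fat body markers were counted. The members, the other gene lists and the tests were chosen with earlier results of these data known. Alternatives tried were scaling, centring, the dye coefficient, the block, the filter on missing values and duplicates, fits on the arrays of 1 comparison alone, each array left out, and 3 treatments of 7b and 8b.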

Additional observations from a re-analysis of the deposited data

Results flagged for a closer look

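In groups of 4 arrays, 4 values of genes named in the text stood far from the other 3. Jon25Bii read 2.77 and Mal-A3 read 0.46 on array 2a in whole females over males. Jon65Aii read -0.23 on array 6a in ovary over testis, and Mal-A1 read 0.11 on array 16a in XX;tra2 over XY;tra2. Over all members, 17 of 171 such groups held a value of this kind, 6 of them on 2a, 4 on 15b and 3 on 4a. The groups share their arrays and members vary together, so this count cannot be set against chance.

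The sex difference itself differed between sources of RNA for several named genes, by the contrast within the limma fit. In carcasses minus whole flies it was higher by 1.47 for thetaTry, 1.25 for Jon99Ci, 0.61 for etaTry and 0.55 for Jon65Aii on the log2 scale. Without array 4a the calls of Jon99Ci and etaTry were lost, at 0.857 and 0.382. In tudor flies minus carcasses Jon65Aiii stood at -1.17, and in tudor flies minus whole flies Mal-A8 stood at 0.85 and Mal-A7 at 0.80, all on 2 tudor arrays.

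The log2 ratio of tudor over y[1]w[67c] flies was higher in females than in males by 1.14 for iotaTry, 1.08 for Mal-A7, 1.00 for thetaTry and 0.69 for Jon65Aii. Each of these 4 rests on 2 arrays a sex and was not called without array 23, 24 or 25. Genotype and background cannot be told apart in them.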

How the results depend on the processing

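No member called in a comparison was called in the opposite direction under any alternative. With the first subarray of 7b and 8b as deposited, ovary against female carcass had 13 called, and 13 of the 29 called members turned sign, among them deltaTry (0.264) and Jon65Aiii (0.181). Both are on that subarray, where opposite values cancel. No paired analysis was possible because no groups share replicate numbers. Each member has 1 element, so the mean over elements of a gene gave the same values.

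With arrays scaled to the same spread, elements called in either direction were 4383 of 12988 in whole flies, 4462 of 12014 in female against XX;tra2 and 2106 of 11510 in tudor females against males. They were 2631 of 13355 in male against tudor male, 1636 of 10901 for tudor minus whole flies and 5092 of 13129 in ovary against testis. In XX against XY tra2 they were 2636 of 11025, and for germline loss 1949 of 10287. Members called higher and lower with this scaling were 8 and 2 in whole flies, 0 and 9 in female against XX;tra2, 19 and 1 in tudor females against males, 2 and 5 in male against tudor male, and 16 and 1 for tudor minus whole flies. Lower in ovary than testis were 2, higher in XX than XY tra2 15, and higher for germline loss in females minus males 9. Without the dye coefficient, called higher were 0 in female against XX;tra2, male against XX;dsx, tudor females and tudor minus whole flies, 2 in XX against XY tra2, 13 for carcasses minus whole flies and 1 for germline loss, while called lower were 0 in carcasses and in tudor minus carcasses and 1 in male against tudor male. On the arrays of a comparison alone, called higher were 1 in ovary against testis, 2 in female against XX;tra2, 2 in male against XX;dsx, 2 in XX against XY tra2, 10 in tudor females and 18 in tudor male against ovary. Called lower there were 4 in whole flies, 0 in carcasses, 19 in ovary against testis and 1 in male against tudor male. Shares over all elements were not computed for these fits. Without centring 1 was higher in tudor females and 0 lower in tudor minus carcasses (135 of 11510 and 17 of 10557 elements were called). Without the block the 3 counts of tudor females, tudor minus carcasses and tudor minus whole flies were 0. Over all elements 123 of 11510, 15 of 10557 and 2647 of 10901 were called there. Testing members measured on every array gave 11 lower in ovary against female carcass, 2 higher in female against XX;tra2 and 1 for tudor minus whole flies. The share over all elements was not computed for that filter. Requiring both duplicate spots gave 1 in tudor females (136 of 9915 elements were called). The cause was not tested for these changes, apart from fewer genes tested in ovary against female carcass.

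With each array left out in turn, members called higher ranged from 10 to 13 in whole flies, 20 to 21 in carcasses, 0 to 2 in female against XX;tra2, 0 to 1 in male against XX;dsx, 1 to 18 in XX against XY tra2, 0 to 0 in tudor females, 11 to 17 and 13 to 28 in tudor males against testis and ovary, and 22 to 22 and 22 to 25 in tudor females against testis and ovary. Called lower ranged from 4 to 10 in whole flies, 0 to 4 in carcasses, 9 to 12 in ovary against testis, 12 to 29 in ovary against female carcass, 18 to 22 in testis against male carcass, 10 to 17 in female against XX;tra2, 7 to 12 in male against XX;dsx, 0 to 0 in male against tudor male and 5 to 7 in female against tudor female. The contrasts ranged from 7 to 26 for carcasses minus whole flies, 0 to 1 for tudor minus carcasses, 0 to 6 for tudor minus whole flies and 0 to 7 for germline loss. Where 2 arrays exist, the lone array left is assumed to vary like those of other comparisons.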

Other observations

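Other midgut products moved with these genes in some comparisons. The lysozymes LysE, LysS and LysX were higher in whole females (3 of 3, median 0.93) and lower in ovary than in female carcass (3 of 3, median -2.45). Against tudor females they were lower in females with a germline, and in tudor females over males their median was 1.06 with 0 of 3 called by limma. The median of other digestive enzymes was 1.24 in tudor males over ovary, with 17 of 19 higher and 0 lower, and 1.44 in tudor females over ovary, with 20 of 21 higher and 0 lower.

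Muc68D, a mucin of the midgut structure list, was lower in whole females at -0.72 and higher in female carcasses at 0.54, a difference called at 1.26 on the log2 scale. The other gene of that list on the array, Peritrophin-A, was called lower in female carcasses, at -0.58, and was not tested in whole flies.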
